A study of Rattus norvegicus with 63 samples.

Results

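Oxidative phosphorylation is the last stage of respiration, in which electrons pass along protein complexes of the inner mitochondrial membrane and the proton gradient they build drives ATP synthesis. The nuclear-encoded subunits of these complexes were followed here as one group of transcripts. A gene was a member if its probe set carried a single symbol starting with Ndufa, Ndufb, Ndufc, Ndufs, Ndufv, Uqcr, Cox4 to Cox8 or Atp5, or was Sdha, Sdhb, Sdhc, Sdhd or Cyc1, with the assembly factors named Ndufaf left out. This rule, which uses names and no measured value, found 81 members among the 14218 genes named on the arrays. Where a gene had several such probe sets, the brightest on average stood for it.

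The series holds 63 Affymetrix rat arrays, 31 labelled prefrontal cortex (PFC) and 32 labelled striatum, the latter being rostral caudate putamen together with nucleus accumbens. Male Wistar rats, bought at 4 weeks of age, were injected intraperitoneally 2 times a day for 7 days from 6 weeks of age, then trained for conditioned place preference and allowed to self-administer intravenously. Tissue was collected on the day after self-administration ended, and per the labels' protocols from the rats with the most robust self-administration. The labels speak of independent pools but count about as many rats as arrays, so p-values measure the spread between arrays, which may be partly technical.

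In the naive cohort all rats received saline in the first stage. Its stimulant groups were then conditioned with amphetamine or methamphetamine at 1.25 or 5 mg/kg, or with methylphenidate at 5 mg/kg. In the pretreated cohort the stimulant groups received the same drug at 5 mg/kg in both stages. The saline group run with that cohort had saline throughout and was itself never pretreated with a stimulant. Rats of the amphetamine and methamphetamine groups infused 0.1 mg/kg at a time, those of the methylphenidate groups 0.25 mg per 0.1 ml, and control rats saline. The infused amounts are therefore not matched across drugs. Naive saline groups had 5 arrays per region, the naive methamphetamine 1.25 mg/kg group of the PFC had 2, and every other group had 3.

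Complex I (NADH dehydrogenase) and complex II (succinate dehydrogenase) feed electrons into the chain, complex III passes them from ubiquinol to cytochrome c, complex IV (cytochrome c oxidase) hands them to oxygen, and complex V is the ATP synthase. Apart from complex II, each complex has a catalytic core and a set of accessory subunits, most of them small. Neurons draw heavily on this pathway, since restoring ion gradients after signalling costs much ATP, and brain transcripts of these subunits are abundant. The subunits encoded by mitochondrial DNA lie outside the naming rule.

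Of the 81 members, 73 passed a filter that left out the 40% of genes with the lowest mean signal in the region. All 34 members of complex I, all 4 of complex II, all 8 of complex III and all 16 of complex V passed, but 11 of 19 of complex IV. The complex IV count includes Ndufa4, which is now assigned to that complex. The 8 members below the filter were Cox4i2, Cox6a2, Cox6b2, Cox7a1, Cox7b2, Cox8b and Ndufa4l2, which are isoforms known mainly from muscle, testis, lung or low-oxygen conditions, and the pseudogene Cox6c-ps1. Another 7 probe sets, among them those of Cox7a2 and Ndufs5, carried several symbols and were not used.

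Promoter sequences were read beside the signals. RefSeq promoter entries (build GRCr8) existed for 72 members, and the 250 bases before the start were searched on both strands for GCGCA and GCGC separated by any 1 base (the NRF1-type motif, after a regulator of respiratory chain genes) and for CCGGAA (the ETS-type motif, after the factors that include GABP). The NRF1-type motif lay in 10 of 72 member promoters, or 13.9%, against 4.17% of all 27457 promoters. The ETS-type motif lay in 28 of 72, or 38.9%, against 13.4% of all. Neither motif contains the other. A match is a description of the letters and not evidence of binding. Below are the 120 bases before the start, 5′ to 3′ on the gene's strand, of 3 accessory subunits and 1 complex IV subunit whose signal is followed through the stimulant comparisons, and of Ndufs1, an iron-sulfur core subunit of complex I whose signal did not rise with theirs. Capitals mark a match to either motif on either strand. The stretches are Ndufa12 at chr7:30658196-30658315 (plus strand), Uqcrh at chr5:134790883-134791002 (minus), Cox5b at chr9:46417717-46417836 (plus), Atp5mf at chr12:14535315-14535434 (plus) and Ndufs1 at chr9:72073606-72073725 (minus).
Ndufa12: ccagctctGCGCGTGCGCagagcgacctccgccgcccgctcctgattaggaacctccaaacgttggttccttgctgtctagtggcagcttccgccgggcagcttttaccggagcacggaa
Uqcrh: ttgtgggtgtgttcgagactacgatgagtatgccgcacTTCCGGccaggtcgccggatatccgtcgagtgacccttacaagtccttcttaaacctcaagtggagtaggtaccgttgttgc
Cox5b: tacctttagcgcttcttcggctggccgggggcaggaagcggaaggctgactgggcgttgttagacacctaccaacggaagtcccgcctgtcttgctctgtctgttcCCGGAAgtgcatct
Atp5mf: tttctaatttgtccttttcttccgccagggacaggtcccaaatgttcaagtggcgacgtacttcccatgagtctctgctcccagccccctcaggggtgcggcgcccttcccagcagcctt
Ndufs1: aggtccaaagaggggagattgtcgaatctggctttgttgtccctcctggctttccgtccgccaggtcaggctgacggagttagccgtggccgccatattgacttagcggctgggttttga
Ndufa12 has an NRF1-type match, Uqcrh and Cox5b have an ETS-type match, and the printed stretches of Atp5mf and Ndufs1 hold neither. Ndufs1 does have 1 ETS-type match in the 250 bases searched, outside its printed stretch.

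Signals are log2 of the deposited intensity, where a difference of 1 is a 2-fold change. In limma's fit over all 8530 genes tested, a gene passed at an adjusted p (Benjamini-Hochberg over those genes) below 0.05. The depth of an array is not a count, and the number of arrays limits the precision. Replicate arrays of a group correlated at 0.931 to 0.958 over all genes. Among the naive arrays, BioB, a bacterial control transcript added at hybridisation, was low (log2 6.17 to 7.07) in both regions on the arrays of methylphenidate, of amphetamine at 5 mg/kg and of saline replicates 4 and 5, and high (9.205 to 10.6) on all other arrays of the series. Striatal markers minus cortical markers averaged 2.79 to 5.29 on 31 striatal arrays and -2.31 to -0.48 on the PFC arrays. Replicate 1 of the striatal group given methamphetamine at 1.25 mg/kg had -1.15, the profile of cortex rather than of its label, and leaving it out changed no count of members that passed. In bulk tissue, fewer cells of a type and less RNA per cell cannot be told apart.

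The brightest member was Ndufb9 in complex I (mean 13.9 in the PFC and in the striatum), Sdhc in complex II (12.6 and 12.7), Uqcr11 in complex III (13.7 and 13.9), Cox6c in complex IV (14.1 and 14.3) and Atp5mk in complex V (14.0 and 14.2). These are small membrane or accessory subunits. The widely expressed forms that could be read were bright: Cox4i1 had a mean of 13.7 in the PFC and 13.5 in the striatum, Cox6a1 13.8 and 13.9, Cox8a 13.9 and 14.1, and Ndufa4 13.4 and 13.5. Cox7a2, the counterpart of Cox7a1, was not read because its probe set carries several symbols. The restricted forms were dim, with Cox4i2 at 3.61 and 3.25, Cox8b at 4.88 and 5.90, Ndufa4l2 at 5.33 and 6.11, Cox6a2 at 7.00 and 5.28 and Cox7a1 at 7.40 and 7.30. These are signals of different probe sets, and set no level of one gene against another. Cox5a was represented by a dim probe set (8.56 and 8.63), because its brighter one carries several symbols.

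In naive saline rats 5 of 73 members were higher in striatum and 2 lower, at adjusted p-values of 0.00029 to 0.0445 in limma's fit, while 40.4% of all genes passed, 21.2% higher and 19.2% lower. The median member difference, striatum minus PFC, was 0.09 with 49 of 73 above 0, against 0.03 over all genes. Same-numbered arrays of the 2 regions deviated together in this group, and a fit that blocked on that number called 12 members, 9 higher and 3 lower. The share of all genes that passed in that fit is not given here, so its count cannot be set against the 40.4%. By complex the median was 0.08 for I, 0.13 for II, 0.01 for III, 0.13 for IV and 0.10 for V. In the saline rats of the pretreated cohort 4 of 73 passed, all lower in striatum, against 27.0% of all genes (13.0% higher and 14.0% lower), and the median was -0.10 with 15 above 0, against 0.00 over all genes. The medians there were -0.13, -0.01, -0.19, -0.11 and -0.09 for complexes I to V.

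Atp5f1d and Ndufv1 were lower in striatum in both cohorts. Atp5f1d, the delta subunit of the ATP synthase's rotating stalk, had log2 signals of 12.55, 12.43, 12.55, 12.53 and 12.41 in the PFC of naive saline rats and 12.20, 12.15, 12.05, 12.34 and 12.15 in their striatum. The pretreated cohort's saline rats had 12.68, 12.59 and 12.70 in the PFC and 12.10, 12.26 and 12.41 in the striatum. No striatal array reached the lowest PFC array of its cohort. The difference was -0.31 (SE 0.07, adjusted p = 0.00029, limma) in the naive and -0.40 (SE 0.09, adjusted p = 0.000582) in the pretreated cohort. Ndufv1, the subunit of complex I that binds NADH, lay at 11.91, 11.83, 11.79, 11.81 and 11.84 in the naive PFC and 11.76, 11.67, 11.53, 11.65 and 11.55 in the naive striatum. Its groups did not overlap in the pretreated cohort either, with 11.90, 11.83 and 11.87 against 11.44, 11.63 and 11.68. The differences of Ndufv1 were -0.20 (SE 0.08, adjusted p = 0.0264, limma) and -0.29 (SE 0.10, adjusted p = 0.0217).

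The other members that passed did so in 1 cohort each. Ndufa3, a membrane accessory subunit of complex I, was higher in naive striatum by 0.40 (SE 0.14, adjusted p = 0.0161, limma), and Ndufb10, another, by 0.24 (SE 0.09, adjusted p = 0.0230). Ndufa3 had 12.71, 12.45, 12.28, 12.21 and 12.12 in the PFC and 12.91, 12.83, 12.97, 12.67 and 12.37 in the striatum. PFC replicates 1 and 2 lay within the striatal range. Cox7c, a small subunit of complex IV, differed by 0.40 (SE 0.16, adjusted p = 0.0378), Atp5mpl, a small membrane protein of complex V, by 0.32 (SE 0.11, adjusted p = 0.0133) and Sdhd, a membrane anchor of complex II, by 0.18 (SE 0.07, adjusted p = 0.0445). None of these 5 passed in the pretreated cohort, and their differences ran from -0.04 for Sdhd to 0.02 for Cox7c. There Uqcrc1, a core protein of complex III, was lower in striatum, with a difference of -0.26 (SE 0.09, adjusted p = 0.0187, limma), and Atp5f1c, the gamma subunit that turns inside the ATP synthase head, was lower too, at -0.23 (SE 0.09, adjusted p = 0.0427). In the naive cohort the same contrast was -0.06 for Uqcrc1 and -0.05 for Atp5f1c, neither of which passed.

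In each complex the extremes of the naive contrast were, besides these, Sdhc at 0.19 and Sdha, the flavoprotein that oxidises succinate, at -0.07; Uqcr11 at 0.25 and Cyc1, cytochrome c1, at -0.15; Cox5a at -0.17; and Atp5me at 0.40. None of these 6 passed without the replicate block. Atp5me was spread widely, at 12.16, 11.41, 11.69, 12.51 and 11.84 in the PFC and 12.85, 11.99, 12.21, 12.59 and 11.98 in the striatum. A split drawn up after the values were seen put 13 catalytic core subunits (the redox and nucleotide-binding subunits of complexes I, II, III and V) beside the 60 others. The median regional difference of the core subunits was -0.05 in naive and -0.09 in pretreated-cohort saline rats, and that of the others 0.12 and -0.10.

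The regional difference of the pretreated cohort minus that of the naive cohort, a contrast added after the data were seen, had a median of -0.21 with 5 of 73 members above 0, against -0.02 over all genes. In limma's fit 0 of 73 members and 0% of all genes passed, and at an unadjusted p under 0.05 there were 0 members and 345 of 8530 genes.

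**Figure D1:**
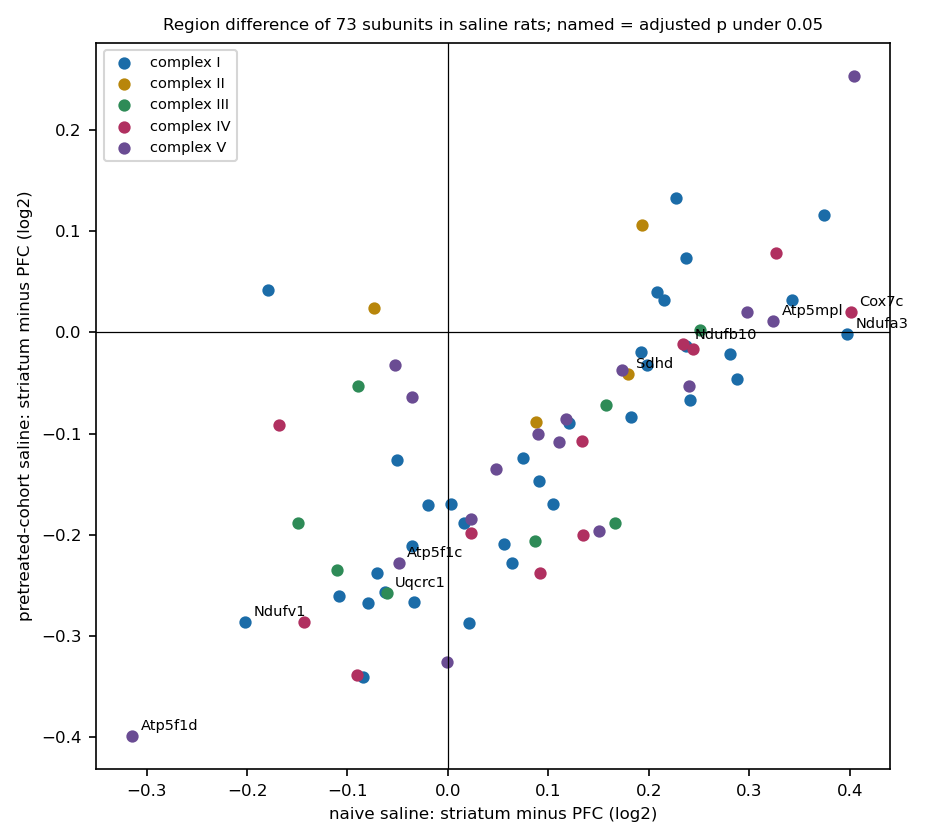
Striatum minus PFC difference in log2 signal for each of the 73 tested members in naive saline rats (x axis) and in the saline rats of the pretreated cohort (y axis), coloured by complex; named points passed in at least 1 cohort. Atp5f1d and Ndufv1 are the named members at the lower left, and 49 members lie right of 0 while 15 lie above it.

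Other genes of energy metabolism were read in the same contrasts from lists drawn up with earlier results of these data known. Of 14 tested genes of the citric acid cycle and pyruvate dehydrogenase, 5 were lower and 0 higher in naive striatum (median -0.18), and 1 was lower in the pretreated cohort (median -0.13). Of 14 glycolytic genes 2 were higher and 7 lower in naive striatum (median -0.19), and 6 were lower in the pretreated cohort (median -0.31). Of 34 assembly factors of the respiratory complexes 4 were higher in the naive cohort, led by Ndufaf8 at 0.79 (SE 0.19), and 5 were lower in the pretreated cohort. Of 40 cytosolic ribosomal proteins 22 were higher in naive striatum (median 0.34) and 0 passed in the pretreated cohort (median 0.04). Markers of other cell types differed too, with 9 of 9 oligodendrocyte markers higher (median 0.58) and 7 of 9 neuronal markers lower (median -0.58) in naive striatum, against 1 of 9 higher (median 0.40) and 5 of 9 lower (median -0.37) in the pretreated cohort. Their part in the members' differences was not tested.

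Calls of single members in these contrasts depended on single arrays. Without PFC replicate 1 of the naive saline group 14 members passed, and without PFC replicate 5, striatum replicate 1 or striatum replicate 3 the count was 3, 4 and 4. In the pretreated cohort the count was 1 without PFC replicate 1 or striatum replicate 1 and 2 without PFC replicate 3 or striatum replicate 2. Atp5f1d passed in both cohorts whichever saline array was left out.

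Cox6a2, the form of subunit VIa known from heart and skeletal muscle, differed between the regions in both cohorts, though it lay below the filter in both regions. Its log2 signal in naive saline rats was 7.20, 6.65, 6.59, 7.47 and 7.07 in the PFC and 5.69, 5.20, 5.86, 5.80 and 5.72 in the striatum. In the pretreated cohort's saline rats it was 6.84, 7.19 and 7.31 in the PFC and 2.94, 5.44 and 2.51 in the striatum, so that no arrays overlapped in either cohort. Fitted without the filter, the difference was -1.34 (SE 0.44, adjusted p = 0.0153, limma) in the naive and -3.48 (SE 0.56, adjusted p = 3.96e-06) in the pretreated cohort. Leaving out each saline array in turn, an alternative chosen after seeing the data, gave -1.22 to -1.44 and -2.92 to -4.39, all passing. The pretreated value rests on 2 striatal arrays near the floor of the scale, where such signals are poorly resolved. The array labelled striatum that had a cortical profile had a Cox6a2 signal of 7.16, within the PFC range. Cox6a1, the widely expressed form, differed by 0.23 (SE 0.13, adjusted p = 0.130, limma) and -0.01 (SE 0.16, adjusted p = 0.971).

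**Figure D2:**
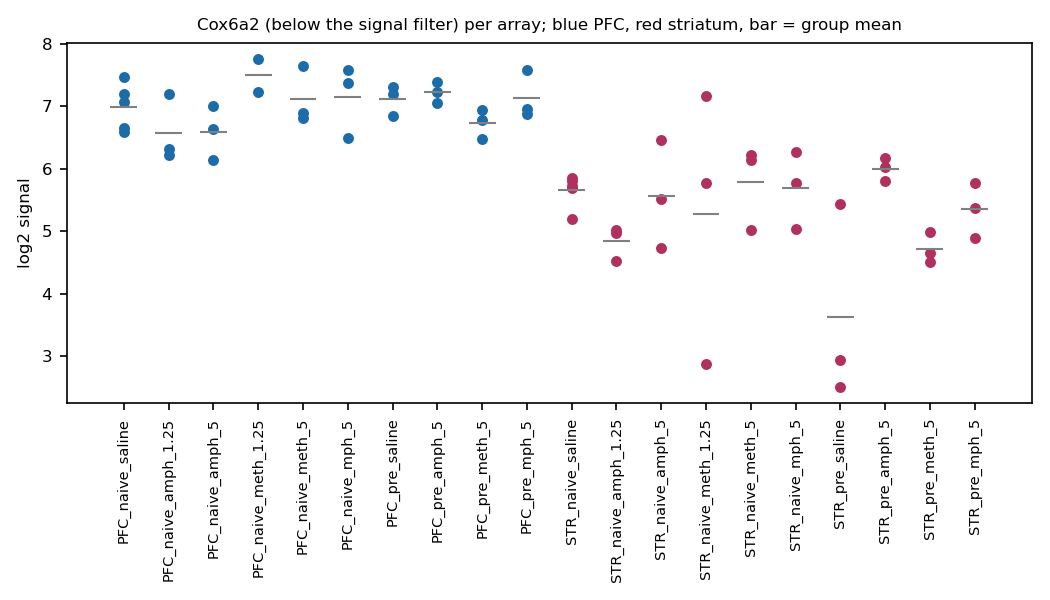
Log2 signal of Cox6a2 on each array (points) with the group mean (bar), PFC groups in blue and striatal groups in red, pretreated-cohort groups marked pre. PFC saline arrays lie between 6.59 and 7.47 and striatal saline arrays between 2.51 and 5.86.

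Ndufa4l2, a low-oxygen paralogue of Ndufa4, was higher in naive striatum by 1.22 without the filter (SE 0.42, adjusted p = 0.0213, limma). Its PFC signals were 5.06, 5.82, 5.50, 5.80 and 3.02 and its striatal signals 5.94, 6.37, 6.71, 6.47 and 5.80, with PFC replicate 5 far below the rest. Without that array the difference was 0.71 (SE 0.39, adjusted p = 0.188), and without striatum replicate 3 it was 1.11 (SE 0.44, adjusted p = 0.0587), so the call depended on either array. These fits were chosen after seeing the data. Its difference in the pretreated cohort was -0.39 (SE 0.54, adjusted p = 0.710). Cox4i2, Cox6b2, Cox7a1, Cox7b2, Cox8b and Cox6c-ps1 did not pass in either cohort, at adjusted p-values of 0.073 to 0.967 in limma's fit.

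The stimulant groups of a cohort were first averaged and set against its saline group, from which they differ in conditioning and self-administration and, in the pretreated cohort, also in the first-stage injections. No member passed in either region or cohort. In naive PFC 0 of 73 passed, against 0.0586% of all genes, and the median difference was 0.09 with 60 members above 0. In pretreated PFC 0 passed, against 0.0703% of all genes (median -0.02, 19 above 0), and in naive striatum 0, against 0.0938% (median -0.00, 35 above 0). In pretreated striatum 0 passed, against 0.363% (median 0.11, 53 above 0). Over all genes these medians were 0.00, -0.01, 0.00 and -0.01. At an unadjusted p under 0.05 the members counted 0, 0, 1 and 7 in the same order. The half-width of a member's 95% interval had a median of 0.19, 0.24, 0.19 and 0.25, so differences of the size of the medians were not detectable gene by gene with this number of arrays.

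The members with the smallest p in naive PFC were Uqcrh, the hinge protein of complex III, at 0.21 (SE 0.11, adjusted p = 0.619, limma), and Atp5mf, a subunit of the membrane part of ATP synthase, at 0.18 (SE 0.11, adjusted p = 0.651). In pretreated PFC they were Atp5f1d at -0.14 (SE 0.07, adjusted p = 0.910) and Ndufb10 at -0.19 (SE 0.10, adjusted p = 0.941), and in naive striatum Atp5f1d at 0.15 (SE 0.06, adjusted p = 0.331) and Atp5pb, a stalk subunit, at -0.15 (SE 0.07, adjusted p = 0.434).

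In pretreated striatum the smallest p-values belonged to subunits of the catalytic core. Atp5f1a, the alpha subunit of the ATP synthase head, had 12.87, 12.94 and 12.98 in saline rats, 12.64, 12.78 and 12.81 after amphetamine, 12.62, 12.49 and 12.61 after methamphetamine and 12.61, 12.71 and 12.84 after methylphenidate. All 9 stimulant arrays lay below the 3 saline arrays. The mean difference was -0.25 (SE 0.08, adjusted p = 0.125, limma), which did not pass. Ndufs1 had a difference of -0.27 (SE 0.09, adjusted p = 0.137), with 11.80, 11.81 and 12.00 in saline rats and 11.24 to 11.88 on the stimulant arrays. Complex IV members lay the other way, all 11 above 0 with a median of 0.20, from Cox4i1 at 0.07 (SE 0.12, adjusted p = 0.826) to Cox7c at 0.33 (SE 0.16, adjusted p = 0.307). The core subunits had a median of -0.06 and the other subunits 0.15 in this comparison. Cytosolic ribosomal proteins had a median of 0.31 there, with 39 of 41 above 0 and 0 that passed, and their part was not tested.

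Cox6a2 stood at 5.80, 6.03 and 6.17 after amphetamine, 4.65, 4.99 and 4.51 after methamphetamine and 5.38, 5.78 and 4.90 after methylphenidate in pretreated striatum, beside the 2.94, 5.44 and 2.51 of saline rats. Fitted without the filter, the mean stimulant difference of 1.73 (SE 0.58, adjusted p = 0.179, limma) did not pass.

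Each stimulant and dose was then set against the saline group of its cohort. Those saline arrays are shared, so the comparisons of a cohort are not independent. Members passed in 1 of 16 such comparisons, methamphetamine at 1.25 mg/kg in naive PFC. In the other 15, 0 of 73 passed in limma's fit, and 0 to 10 members had an unadjusted p under 0.05. The share of all genes that passed in naive PFC was 0.492% for amphetamine 1.25 mg/kg, 0.0117% for amphetamine 5 mg/kg, 0.0352% for methamphetamine 5 mg/kg and 0% for methylphenidate. In pretreated PFC it was 0.0234% for amphetamine, 0.0117% for methamphetamine and 0.0938% for methylphenidate. In naive striatum it was 0.340% and 0% for amphetamine 1.25 and 5 mg/kg, 0.188% and 0.328% for methamphetamine 1.25 and 5 mg/kg and 0.129% for methylphenidate. In pretreated striatum it was 0% for amphetamine, 0.703% for methamphetamine and 0.0821% for methylphenidate. The member medians of those 15 ran from -0.16 (PFC, naive amphetamine 5 mg/kg, where 3 of 73 were above 0) to 0.17 (striatum, pretreated methamphetamine). For amphetamine 5 mg/kg in naive PFC the smallest p-values belonged to Atp5f1d at -0.25 (SE 0.08, adjusted p = 0.300, limma) and Uqcrfs1, the Rieske iron-sulfur protein of complex III, at -0.31 (SE 0.11, adjusted p = 0.330).

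In naive PFC after methamphetamine at 1.25 mg/kg, 26 of 73 members rose and none fell in limma's fit, while 11.1% of all genes tested passed, made up of 4.81% higher and 6.33% lower. The median member difference was 0.43 with 65 of 73 above 0, against -0.01 over all genes. The members that rose were 10 of 34 in complex I (median 0.43), 3 of 8 in complex III (0.29), 8 of 11 in complex IV (0.55) and 5 of 16 in complex V (0.42), and differences between complexes were not tested. In complex II 0 of 4 passed in limma's fit and 1 had an unadjusted p under 0.05 (median 0.11). This group has 2 arrays, without the first of which 0 members passed, and the median half-width of a member's 95% interval was 0.30.

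Accessory and membrane subunits led. Ndufb1, an accessory subunit of complex I, had 12.36, 12.19, 12.11, 12.18 and 11.97 in saline rats and 13.34 and 12.64 after methamphetamine, a rise of 0.83 (SE 0.22, adjusted p = 0.0216, limma). Uqcrh had 13.26, 13.13, 13.05, 13.33 and 12.97 against 14.11 and 13.62, a rise of 0.72 (SE 0.18, adjusted p = 0.0176). Atp5mf had 13.52, 13.46, 13.32, 13.42 and 13.24 against 14.34 and 13.82, a rise of 0.69 (SE 0.17, adjusted p = 0.0176). In all 3 both methamphetamine arrays lay above all saline arrays, and replicate 1 lay above replicate 2.

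Cox7c had 13.34, 13.12, 13.04, 13.14 and 12.81 in saline rats and 14.13 and 13.49 after methamphetamine, a rise of 0.72 (SE 0.20, adjusted p = 0.0253, limma). Cox4i1, the largest nuclear-encoded subunit of complex IV, rose by 0.60 (SE 0.18, adjusted p = 0.0308), from 13.29 to 13.60 over the saline arrays to 14.35 and 13.85. Cox5b rose by 0.57 (SE 0.16, adjusted p = 0.0236), Cox6a1 by 0.55 (SE 0.16, adjusted p = 0.0332) and Cox8a by 0.45 (SE 0.14, adjusted p = 0.0383). Cox7a2l, a factor that joins complexes III and IV into supercomplexes, rose by 0.43 (SE 0.13, adjusted p = 0.0376). Among the complex IV members Cox5a, Ndufa4 and Cox6b1 did not pass, with differences of 0.19, 0.33 and 0.46.

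In complex V the rise covered Atp5mk at 0.72 (SE 0.21, adjusted p = 0.0289, limma), Atp5f1e, the epsilon subunit, at 0.61 (SE 0.20, adjusted p = 0.0491), Atp5pf, a stalk subunit, at 0.50 (SE 0.13, adjusted p = 0.0189) and Atp5if1, the protein that inhibits ATP hydrolysis by the enzyme, at 0.51 (SE 0.15, adjusted p = 0.0289). In complex I it covered Ndufa1 at 0.69 (SE 0.20, adjusted p = 0.0302), Ndufa3 at 0.62 (SE 0.17, adjusted p = 0.0216), Ndufa8, Ndufa12, Ndufa5, Ndufb2, Ndufb4, Ndufs6 and Ndufab1, the mitochondrial acyl carrier protein, at 0.41 to 0.61. In complex III Uqcr10 and Uqcr11 rose by 0.64 and 0.48 beside Uqcrh. In 26 of the 26 members that passed, and in 44 of 73 members (60.3%), both methamphetamine arrays lay above all 5 saline arrays, as they did in 1073 of 8530 genes (12.6%).

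The subunits that carry the redox centres and the nucleotide sites were put together as 13 catalytic core subunits after these values were seen, so their values are a description only. Of them 0 passed in limma's fit, 4 had an unadjusted p under 0.05 and the median was 0.06, against 26 of 60 and 0.47 among the others. Ndufs1 had 11.63, 11.78, 11.75, 11.73 and 11.87 in saline rats and 11.44 and 11.59 after methamphetamine, below all saline arrays, a difference of -0.24 that did not pass (SE 0.10, adjusted p = 0.121, limma). Atp5f1a had 13.02, 12.76, 12.77, 12.95 and 12.85 against 12.49 and 12.93, at -0.16 (SE 0.11, adjusted p = 0.362). Sdha had 12.43, 12.42, 12.29, 12.21 and 12.30 against 12.12 and 12.31, at -0.12 (SE 0.08, adjusted p = 0.322). Atp5f1b, the catalytic beta subunit, was at 0.32 (SE 0.12, adjusted p = 0.0763). The core proteins of complex III, which are not in the group of 13, lay at -0.17 for Uqcrc2 and -0.00 for Uqcrc1.

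**Figure D3:**
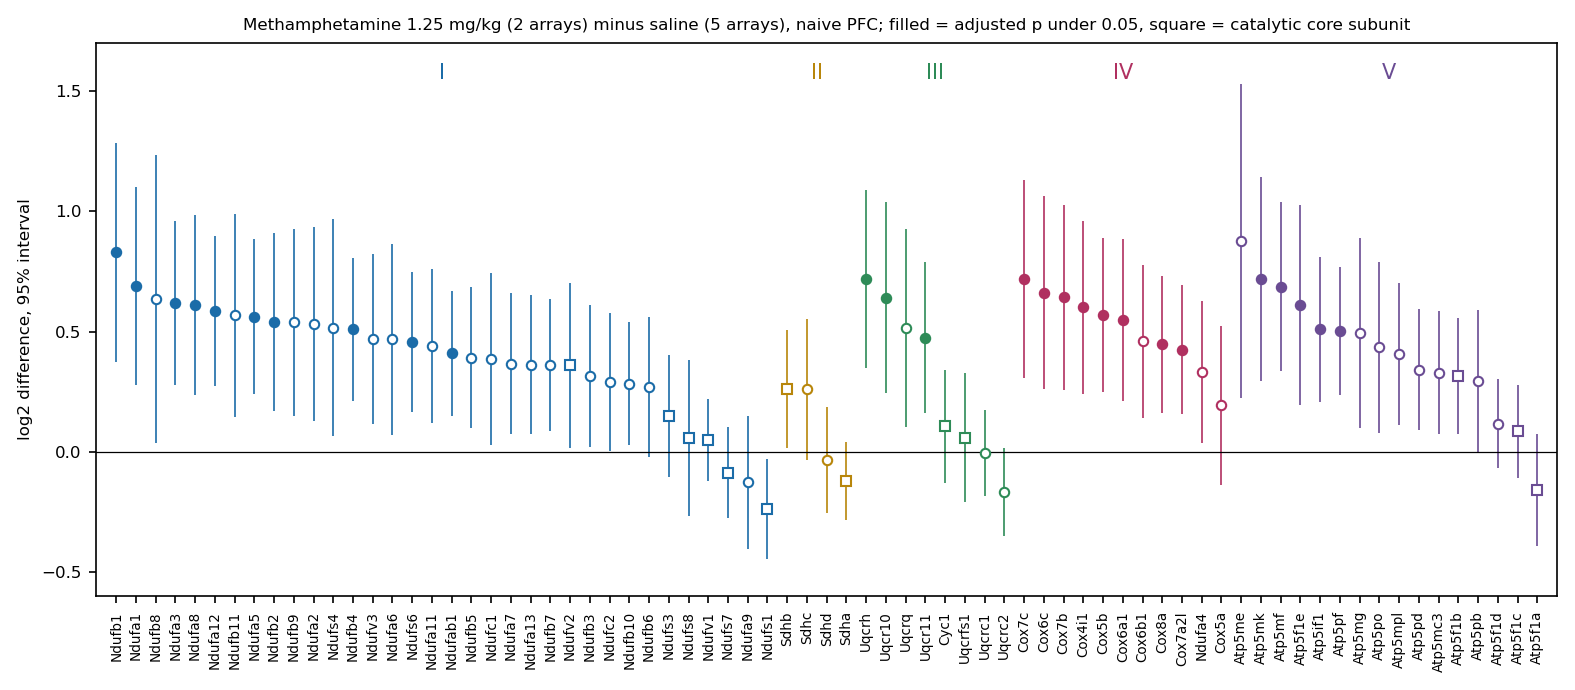
Log2 difference, methamphetamine 1.25 mg/kg (2 arrays) minus saline (5 arrays) in naive PFC, for each of the 73 tested members with its 95% interval, grouped by complex; filled symbols passed and squares are catalytic core subunits, a group drawn up after the values were seen. The 26 filled symbols all lie above 0, and none of the 13 squares is filled.

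The promoter motifs described above were also counted by outcome. The NRF1-type motif lay in 3 of 22 promoters of members that rose (13.6%) and in 7 of 44 of the other tested members (15.9%), and the ETS-type motif in 9 of 22 (40.9%) and 19 of 44 (43.2%).

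Other gene lists, read in the same comparison, divided as follows. Of 40 cytosolic ribosomal proteins 37 were higher and 0 lower (median 0.75), and of 73 mitochondrial ribosomal proteins 9 were higher, led by Mrps18c at 0.98 (SE 0.26), and 1 was lower (median 0.17). Of 35 assembly factors 3 were higher, namely Ndufaf8 at 0.85 (SE 0.22), Cox17, a copper carrier to complex IV, at 0.51 (SE 0.15) and Tmem126b at 0.47 (SE 0.14), and Lrpprc was lower at -0.41 (SE 0.13). Of 14 genes of the citric acid cycle and pyruvate dehydrogenase 2 were lower, Dld at -0.42 (SE 0.12) and Ogdh at -0.40 (SE 0.09), and of 15 glycolytic genes Aldoc was higher while Hk1 and Pfkp were lower. Of 9 oligodendrocyte markers 1 was higher and 3 lower (median -0.47), of 10 neuronal markers 2 were higher and 2 lower (-0.09), and of 10 astrocyte markers 2 were higher and 1 lower (0.20). Of 8 markers each of endothelium, cortical neurons, interneurons and striatal neurons 1 was lower (medians -0.35, -0.09, -0.14 and -0.10), and of 6 microglial markers 0 passed in limma's fit, 3 having an unadjusted p under 0.05 (0.24). The difference between the 3′ and 5′ Gapdh probe sets was 0.80 and 0.42 on the methamphetamine arrays, 0.25 to 0.37 on saline replicates 1 to 3 and 1.20 and 1.02 on saline replicates 4 and 5, and BioB was high on both methamphetamine arrays (10.6 and 10.1). The part of the gene lists and of the Gapdh difference in the members' rise was not tested. Fits that take the BioB level into account are given below.

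The count depended on single arrays. Without methamphetamine replicate 1, 0 members passed and the median was 0.25, and without replicate 2, 37 passed and the median was 0.58. Each of these fits leaves 1 methamphetamine array, which is assumed to vary like the other groups. Without saline replicate 5 or 3 the counts were 7 and 14. With the BioB level as a block 2 members passed, and within arrays of high BioB signal 0 did, at a median of 0.40 in a fit of fewer arrays. Quantile normalization, a scaling tried after the data were seen, left 7 higher and 1 lower, with a median of 0.21, and turned Cox8a to -0.08.

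**Figure D4:**
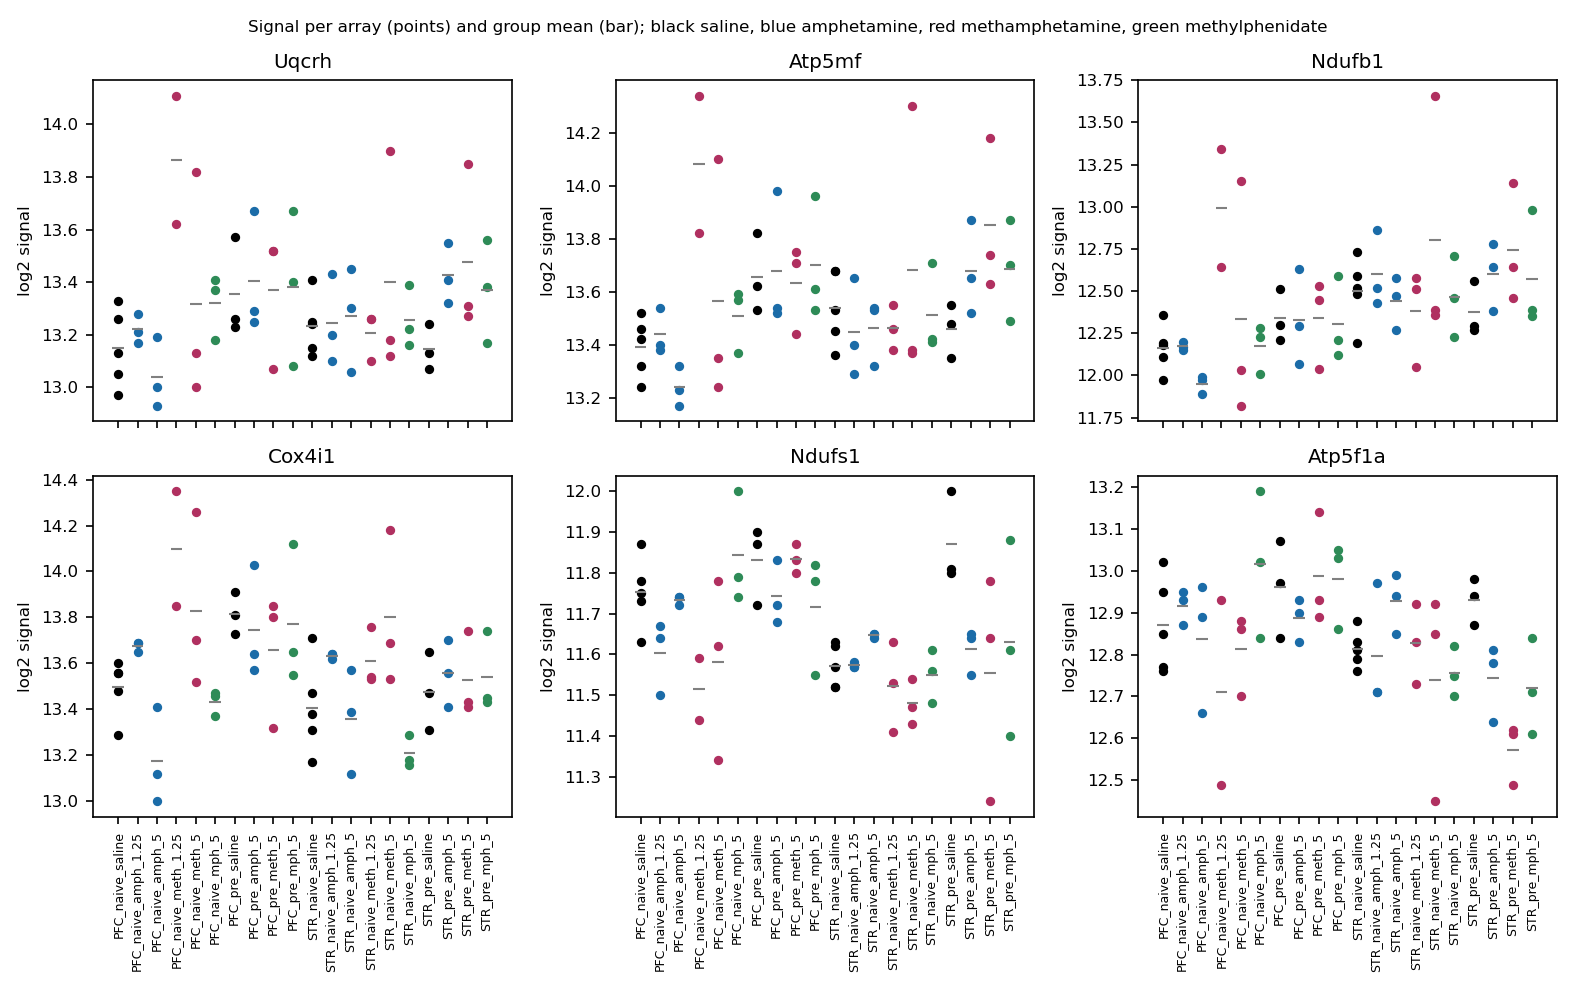
Log2 signal on every array (points) and group means (bars) of 6 members across regions, cohorts, drugs and doses, with saline in black, amphetamine in blue, methamphetamine in red and methylphenidate in green. Uqcrh has 1 high methamphetamine array in each of 4 groups (14.11, 13.82, 13.90 and 13.85), whereas the methamphetamine arrays of Ndufs1 and Atp5f1a include the lowest of the plot.

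Member signals were also high on single arrays of other groups. Taking each array's median deviation from the mean of its cohort's saline arrays, 4 arrays had ribosomal protein deviations of 0.676 to 1.03, while the other 59 reached at most 0.526, a division made after the data were seen. These 4 were PFC naive methamphetamine 1.25 mg/kg replicate 1, PFC naive 5 mg/kg replicate 2, striatum naive 5 mg/kg replicate 3 and striatum pretreated 5 mg/kg replicate 2. Their member deviations were 0.58, 0.51, 0.58 and 0.42, against -0.26 to 0.25 on the other 59 arrays. The groupmates of the last 3 had member deviations of -0.11 and -0.15, -0.08 and -0.08, and 0.08 and 0.02. Smaller deviations of the same kind were found with other drugs: in the pretreated cohort the members deviated by 0.24 and the ribosomal proteins by 0.43 on striatal methylphenidate replicate 2, by 0.20 and 0.39 on striatal amphetamine replicate 1, and by 0.21 and 0.37 on PFC amphetamine replicate 1. PFC methylphenidate replicate 1 of that cohort had 0.13 and 0.526. Striatal methylphenidate replicate 1 had 0.009 and 0.449, so the members did not always rise with the ribosomal proteins. Whether the deviation is particular to methamphetamine was not tested.

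The split into core and other subunits, which the first of these 4 arrays helped to prompt, gave the following values. The 60 other subunits deviated by 0.65, 0.54, 0.63 and 0.49, and the 13 core subunits by 0.06, 0.11, 0.20 and -0.04. Complex II deviated by 0.11 to 0.13. Each of the 4 had the highest 3′ minus 5′ Gapdh difference of its group (0.80, 0.59, 1.08 and 1.24) and the highest BioB signal of its group (10.6, 10.2, 10.4 and 10.3). Endothelial markers averaged 8.13, 8.29, 7.79 and 8.37 on them, against 8.67 to 8.95 in naive PFC saline, 8.17 to 9.17 in naive striatal saline and 8.81 to 8.86 in the pretreated cohort's striatal saline. Neuronal markers averaged 12.02, 11.96, 11.56 and 11.37, against 12.13 to 12.25, 11.53 to 11.63 and 11.66 to 11.70. The part of these measures in the deviation was not tested. Without these 4 arrays the median member difference of the stimulant mean from saline was 0.01 in naive PFC, -0.02 in pretreated PFC, -0.03 in naive striatum and 0.07 in pretreated striatum.

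**Figure D5:**
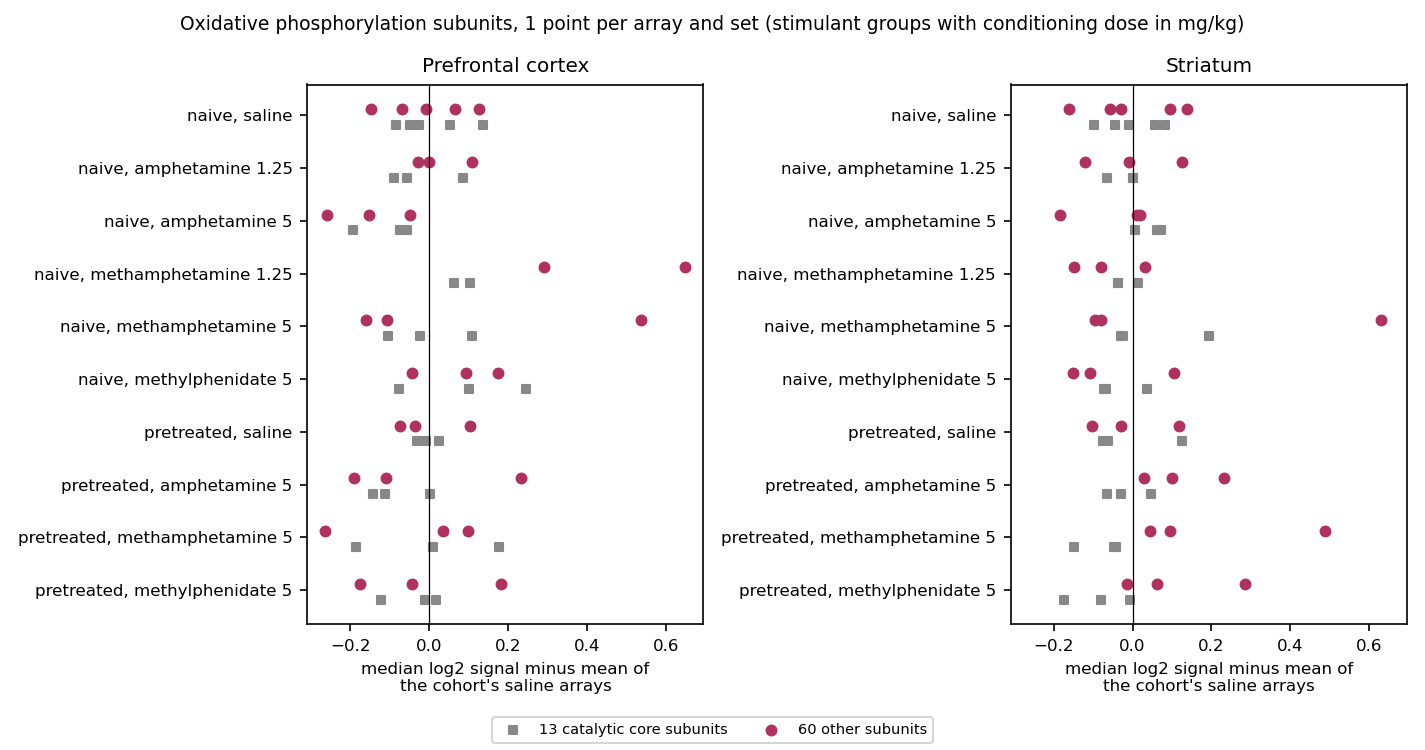
Median deviation of log2 signal from the mean of the cohort's saline arrays, 1 point per array, for the 60 other subunits (circles) and the 13 catalytic core subunits (squares), a split made after the values were seen, in every group of the PFC and the striatum. The other subunits lie at 0.49 to 0.65 on 4 methamphetamine arrays while the core subunits of those arrays lie at -0.04 to 0.20.

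At the 5 mg/kg dose the members did not pass against saline for methamphetamine in either region. In PFC the median was 0.09, and -0.12 without the array of high ribosomal signal, and Cox4i1 had the smallest p at 0.33 (SE 0.15, adjusted p = 0.587, limma), followed by Ndufs1 at -0.17 (SE 0.09, adjusted p = 0.632). In striatum the median was 0.14, and -0.08 without that array. The smallest p there belonged to Atp5f1d at 0.30 (SE 0.09, adjusted p = 0.156) and Cox4i1 at 0.39 (SE 0.13, adjusted p = 0.232).

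Amphetamine, its N-methylated relative methamphetamine, and methylphenidate were compared with each other in 14 pairs at matched conditioning doses. Within single pairs, members passed in 3 of the 14, all with methamphetamine as the higher drug. When limma's p-values were adjusted over the 119420 tests of all 14 pairs together, 135 tests passed and 0 of these were of members. A gene that passed in more than 1 pair counts once for each. The smallest adjusted p of a member was 0.0939 for Cox4i1. Conditioning doses matched in these pairs, but amphetamine 5 mg/kg and methylphenidate 5 mg/kg of the naive cohort were on arrays of low BioB signal and methamphetamine on arrays of high BioB signal. Naive saline holds both levels in each region, so a BioB term could be fitted beside drug, and its effect is given with the calls.

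Methamphetamine minus amphetamine at 1.25 mg/kg in naive PFC gave 7 of 73 members higher and 0 lower, with 6.26% of all genes passing (2.57% higher and 3.69% lower), and a member median of 0.41 against -0.02 over all genes. The 7 were Ndufb1 at 0.82 (95% interval ± 0.50, adjusted p = 0.0431 within the pair, limma), Ndufs4, an accessory subunit needed for complex I stability, at 0.80 (± 0.49, 0.0449), Uqcrh at 0.65 (± 0.40, 0.0475), Atp5mf at 0.64 (± 0.38, 0.0415), Ndufa12 at 0.62 (± 0.34, 0.0346), Ndufa5 at 0.58 (± 0.35, 0.0438) and Atp5pf at 0.48 (± 0.29, 0.0415). Ndufb1 had 12.17, 12.20 and 12.15 after amphetamine against 13.34 and 12.64 after methamphetamine. The amphetamine arrays of Ndufa12 stood at 12.02, 12.30 and 12.07 and its methamphetamine arrays at 12.84 and 12.66. Without methamphetamine replicate 1 the count was 0 and the median 0.22, without replicate 2 it was 31, and without amphetamine replicate 1, 2 or 3 it was 0, 3 and 0.

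At 5 mg/kg Cox4i1 was the member that passed, in both regions. In naive PFC it was higher after methamphetamine (13.70, 14.26 and 13.52) than after amphetamine (13.41, 13.12 and 13.00) by 0.65 (95% interval ± 0.35, adjusted p = 0.0493, limma), where 1.45% of all genes passed. In naive striatum it was lower after methylphenidate (13.16, 13.18 and 13.29) than after methamphetamine (13.53, 13.69 and 14.18), at -0.59 (± 0.30, adjusted p = 0.0404), where 1.57% of all genes passed. The groups did not overlap in either pair. The first call was lost without any 1 of amphetamine replicates 1 to 3 or methamphetamine replicates 1 and 2, and the second without any 1 of methylphenidate replicates 1 to 3 or methamphetamine replicates 2 and 3. With the BioB level as a block both differences kept their sign, at 0.53 and -0.31, and 0 members passed.

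In the other 11 pairs 0 of 73 members passed in limma's fit, and 0 to 14 had an unadjusted p under 0.05. The share of all genes that passed was 1.85% for methylphenidate minus methamphetamine in naive PFC, 1.58% for methamphetamine minus amphetamine at 5 mg/kg in naive striatum and 0% in the other 9. The member medians ran from -0.09 to 0.22, and those of all genes from -0.01 to 0.03. The half-width of a member's 95% interval had a median of 0.29 in the PFC and 0.30 in the striatum, so single-gene differences below about that size could not be seen, and the drugs are not shown to act alike. The highest median, 0.22 with 72 of 73 above 0, was that of methylphenidate minus amphetamine at 5 mg/kg in naive PFC, where both groups were on arrays of low BioB signal. Its smallest p-values belonged to Atp5f1d at 0.30 (± 0.18) and Uqcrfs1 at 0.42 (± 0.26), each at an adjusted p of 0.832 in limma's fit.

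Between doses, no member passed in limma's fit. Methamphetamine at 5 minus 1.25 mg/kg in naive PFC had a member median of -0.33 with 6 of 73 above 0, and 0 members and 0% of all genes passed in limma's fit. At an unadjusted p under 0.05 there were 36 members, a count not set against the share of all genes at that cut. Uqcrh had a difference of -0.55 (SE 0.20, adjusted p = 0.237) and Ndufa12 of -0.46 (SE 0.17, adjusted p = 0.237). The same contrast in striatum had a median of 0.20 with 66 above 0 and 0 passing, against 0% of all genes, and -0.01 without the array of high ribosomal signal. For amphetamine the medians were -0.14 in PFC (0 passing, against 7.07% of all genes, and 11 members at an unadjusted p under 0.05) and -0.02 in striatum (0 passing, against 1.68%, and 5 members at an unadjusted p under 0.05). The 2 amphetamine doses were on arrays of high and low BioB signal, and with the BioB level as a block 0 members passed in either region, at medians of -0.10 and -0.01.

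The last contrasts ask whether the stimulant effect on the subunits differed between cohorts or regions. The pretreated minus naive difference at 5 mg/kg had a member median of -0.02 in PFC and 0.07 in striatum, with 0 members passing, against 0.0117% and 0.0586% of all genes. The striatum minus PFC difference had a median of -0.08 in the naive and 0.14 in the pretreated cohort, with 0 members and 0% of all genes passing in each. In the pretreated cohort 59 of 73 members were above 0, including all 11 of complex IV (median 0.24) and none of the 4 of complex II (median -0.03). At an unadjusted p under 0.05 the members counted 0, 5, 2 and 1 in these 4 contrasts.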

How the data were processed

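Signals were made by the authors with MAS5 on Affymetrix arrays of 31099 probe sets, per the submitters' processing notes, which give no version. The deposited values are linear intensity, and each array's trimmed mean (2% off each end) was 500.1 to 500.2. Of the probe sets, 20832 have 1 gene symbol, 436 several and 9831 none. Values under 1 (18232 of them) were set to 1 and log2 was taken of the deposited intensity. The probe set of highest mean represented a gene, and the 40% of the 14218 genes with the lowest mean were left out, leaving 8530 per region. Groups came from the labels. Same-numbered PFC and striatal arrays deviated together in all 5 pairs of the naive saline group (r 0.229 to 0.532). This is taken as a pairing from the data, since the labels do not say that they share a rat. In the pretreated cohort's saline groups the 3 same-numbered pairs had smaller r values, 0.096 to 0.158. Pairs of different number there had -0.122 to 0.006. The regional values given for that cohort are from the fit without a block on the number. Replicates 1 to 3 of naive saline had high and 4 and 5 low BioB signal in both regions. Arrays of different number at 1 BioB level also correlated (up to 0.435), so the number and the BioB level cannot be fully told apart in naive saline. limma 3.58.1 in R 4.3.3 fitted 1 mean per group within a region, all groups of the region sharing the spread. For contrasts between regions all groups of both regions were fitted together and shared the spread. The regional contrast itself compared the saline groups. Fits had an intensity trend and Benjamini-Hochberg adjustment over all genes tested. Most counts of members at an unadjusted p under 0.05 are given without the share of all genes. Such counts do not show how the members compare with other genes. The fit was tested on simulated data.

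Every member may be named. Values were given for the regional extremes of each complex, for members passing in a stimulant comparison (at most 5 each way by fold, or the 2 of smallest p where none passed), for the restricted isoforms with their counterparts, and for the brightest member of a complex. Other members' array values were chosen after they were seen. The members and lists were chosen with earlier results of these data known. Alternatives were quantile normalization, an added constant, other filters, all probe sets, no intensity trend, the BioB level or the replicate number as a block, single cohorts and left-out arrays. For the stimulant means the difference between the 3′ and 5′ Gapdh probe sets was also fitted as a covariate, chosen after seeing the data. Array number limits the precision, and no depth applies.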

Additional observations from a re-analysis of the deposited data

Results flagged for a closer look

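In groups of naive saline arrays 100 sets of values were screened, each of a member or of a median over all members or a complex. Of these 5 held an array far from the others, all of them sets of single members, and chance gives about 1 in 20. In PFC these were Cox5a at a log2 signal of 8.29, Cox7a1 at 7.04 and Ndufa4l2 at 3.02. In striatum they were Cox4i2 at 2.01 and Cox6a2 at 5.20. All but Cox5a lie below the filter.

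Median deviations from saline had opposite signs on every array of a pair of groups in 4 cases, and none of these differences was tested. The median of all members and that of each complex were screened. Every stimulant group was screened between regions, and each 5 mg/kg group also between cohorts. With so few arrays per group, some such cases can arise by chance. For methamphetamine 1.25 mg/kg in naive rats, complex II averaged 0.088 in PFC and -0.079 in striatum. The striatal mean includes replicate 1, the array of cortical profile, at -0.119. For amphetamine 5 mg/kg in striatum, complex II averaged 0.035 in the naive and -0.026 in the pretreated cohort, and complex IV averaged -0.132 and 0.152. For methylphenidate 5 mg/kg in striatum, complex IV averaged -0.127 in the naive and 0.235 in the pretreated cohort. The naive amphetamine and methylphenidate arrays at 5 mg/kg had low BioB signal and the pretreated ones high.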

How the results depend on the processing

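Of 648 alternatives of counts and medians, 578 kept the count within 1.5 times or the median within the spread between replicates. Counts that stayed at 0 are among these. The spread was 0.174 in the PFC, 0.164 in the striatum and 0.169 over both. It exceeded the medians between regions and of the stimulant means, so such a median could change sign and still be counted as kept. Of 736 alternatives of single members that passed, 418 still passed, 317 kept the direction without passing and 1 turned: Cox8a to -0.076 under quantile normalization. The number of members that passed is given unless a median is named. For striatum minus PFC in naive saline rats quantile normalization gave 11, and leaving out an array 3 to 14, or 1 to 4 in the pretreated cohort. For methamphetamine 1.25 mg/kg minus saline in naive PFC the BioB block gave 2, within arrays of high BioB signal 0, no filter 15 and quantile normalization 8 (median 0.213). Leaving out an array gave 0 to 37 (median 0.25 to 0.58). For methamphetamine minus amphetamine at 1.25 mg/kg there, quantile normalization gave 4, no filter 0, no intensity trend 2, within arrays of high BioB signal 0, and leaving out an array 0 to 31 (median 0.222 to 0.569). At 5 mg/kg in naive PFC the BioB block, no filter and no intensity trend gave 0, quantile normalization a median of 0.050, and leaving out an array 0 to 1 (median 0.024 to 0.333). For methylphenidate minus methamphetamine in naive striatum the BioB block and no filter gave 0, and leaving out an array 0 to 1 (median -0.285 to 0.036). Leaving out the 4 arrays of highest ribosomal signal, chosen after seeing the data, gave 0 for methamphetamine 1.25 mg/kg minus saline (median 0.250), 1 against amphetamine (median 0.222), 6 between amphetamine doses in PFC and 1 in striatum. It gave 0 (median 0.024) for methamphetamine minus amphetamine at 5 mg/kg and 3 (median 0.204) for methylphenidate minus methamphetamine in naive PFC. In naive striatum it gave 2 (median -0.049) for methamphetamine minus amphetamine at 5 mg/kg and a median of 0.036 for methylphenidate minus methamphetamine. The median of methamphetamine 5 mg/kg minus saline became -0.124 in PFC and -0.083 in striatum, and that between its doses in striatum -0.014. The other settings tried on stimulant comparisons in which a member passed were also chosen after seeing the data. The cause of these changes was not tested. Same-numbered arrays of a region and cohort had a median correlation of -0.002, with 37 of 121 pairs over 0.1, so the numbers do not establish a pairing there. Between regions, same-numbered arrays of 1 treatment had a median of 0.203, with 23 of 31 over 0.1, against -0.101, with 16 of 72, for different numbers. With the replicate block 12 members passed between regions in naive saline rats. Same-numbered arrays deviated together there, but so did arrays of different number at 1 BioB level, so a pairing by number is not established. In the comparisons within a region 1 passed for amphetamine 5 mg/kg and 1 for methylphenidate minus saline in naive PFC, 0 for methamphetamine 1.25 mg/kg minus saline and 0 minus amphetamine. The block also gave 4 between amphetamine doses, 2 for methamphetamine minus amphetamine and 1 for methylphenidate minus methamphetamine at 5 mg/kg in naive PFC.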
